A study of Mus musculus with 9 samples.

Results

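The genes described here encode subunits and regulators of the protein complexes that start autophagy, the ULK kinase complex and the VPS34 lipid kinase complexes. The members were named by symbol, namely Ulk1, Ulk2, Rb1cc1, Pik3c3, Pik3r4, Becn1, Ambra1, Uvrag, Rubcn and Nrbf2 (the rule uses no measured value, although earlier results of these data were known when they were proposed). They are 10 of the 47643 genes in the count table. All 10 had enough reads to be tested.

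RNA was sequenced from long-term hematopoietic stem cells (LT-HSCs), sorted as Lin-cKit+Sca1+Flk2-CD48-CD150+ cells, with 3 libraries in each of 3 genotypes. TKO cells carry Pik3ca lox/lox, Pik3cb lox/lox, Pik3cd-/- and the Mx1-Cre transgene, and thus lack the class IA phosphoinositide 3-kinase (PI3K) catalytic subunits p110α, p110β and p110δ once Cre has acted. δKO littermate cells carry the same lox and Pik3cd-/- alleles without Mx1-Cre, and thus lack p110δ alone, whereas WT cells carry Mx1-Cre and wild-type PI3K genes. Donor marrow on the C57BL/6 background had been transplanted into lethally irradiated B6.SJL mice. All groups received polyinosinic-polycytidylic acid (pIpC), 2 injections of 250 μg given 48 hours apart, and cells were taken 4 weeks later. The Mx1 promoter is induced by interferon and is active well beyond stem cells, pIpC itself induces interferon, and marrow of the 7 recipients of a group was pooled before staining. The series description calls the libraries of a genotype biological replicates, yet the protocol gives this pooling, and whether they came from separate animals was not settled, so the p-values measure the spread between these libraries, which may be technical.

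In background knowledge, ULK1 or ULK2 forms a kinase complex with FIP200 (the product of Rb1cc1), ATG13 and ATG101. The complex is held in check by MTORC1 and activated by AMP-activated kinase, and class I PI3K signaling through AKT keeps MTORC1 active. Active ULK complex recruits VPS34 (Pik3c3), the class III PI3K, which with VPS15 (Pik3r4) and Beclin 1 (Becn1) makes phosphatidylinositol 3-phosphate (PI3P) on membranes. ATG14 directs this lipid kinase to forming autophagosomes, whereas UVRAG directs it to endosomes, and autophagy is known to protect the maintenance of HSCs. Much of the control of these complexes is by phosphorylation and binding, which RNA counts do not measure.

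Depth ranged from 31300343 to 60386097 counts per library. Between 18180 and 22703 genes were detected (1 or more counts), with the fewest in δKO replicate 1, the δKO library whose column number matches no sample label ("unnumbered δKO library") and TKO replicate 2. δKO replicate 1 stood apart in low values, as 3.03% of the 8908 genes that averaged 10 or more CPM (counts scaled to a common library size) were over 10-fold below their median in the other libraries, against 0.0337% to 0.887% in the other 8 libraries. All 10 HSC marker genes (among them Kit, Slamf1 and Procr) exceeded 1 CPM in every library, and they summed to 1372 to 1654 CPM in WT, 1348 to 3066 in δKO cells and 1880 to 2321 in TKO. Markers of neutrophils and their precursors (10 genes, among them Mpo and S100a8) summed to 5254 to 12283 CPM in WT, 280.1 to 12124 in δKO cells and 169 to 3239 in TKO, and none of the 10 was at 0 in any library. Whether these cells' RNA had a part in the values below was not tested, and in bulk RNA fewer cells of a type and less RNA per cell cannot be told apart. Flt3 (Flk2) and Cd48 were both negative in the sort. They summed to 50.1 to 133 CPM in WT, 12.9 to 76.3 in δKO cells and 26.3 to 49.0 in TKO. Markers of T and NK cells summed to 80.0 to 232 CPM in WT, 3.83 to 192 in δKO cells and 24.8 to 67.0 in TKO. The remaining lists overlapped between all genotypes. Over all libraries markers of monocytes and macrophages summed to 9.66 to 334 CPM, of erythroid cells to 8.48 to 118 and of megakaryocytes to 146 to 548. Those of B cells summed to 4.68 to 12.4 CPM and those of stroma and endothelium to 0.774 to 13.2. Of the targeted genes, Pik3cd was at 98.2 to 139 CPM in WT, 38.5 to 91.2 in δKO cells and 71.2 to 73.5 in TKO. Pik3cb was at 44.6 to 63.6 CPM in WT, 33.2 to 101 in δKO cells and 25.5 to 33.9 in TKO, and Pik3ca at 45.8 to 65.0, 41.3 to 88.2 and 52.8 to 68.0 CPM. Counts over whole genes do not show the excision of the deleted exons.

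No initiation gene passed the test in any comparison. With edgeR's quasi-likelihood test on all 9 libraries, calls needed more than 2-fold change and a p under 0.05 after Benjamini-Hochberg adjustment. Between TKO and WT 0 of 10 members were called, against 0.00549% of all 18205 genes tested. Between TKO and δKO the count was also 0 of 10, against 0% of all genes, and between δKO and WT 0 of 10, against 0.00549%. An unadjusted p under 0.05 was reached by 0 of 10 members in each comparison, against 4.19% of all genes for TKO against WT, 10.2% for TKO against δKO and 7.01% for δKO against WT. In no comparison did all libraries of one genotype lie above or below all of the other for any member, whereas this held for 14.4%, 11.7% and 11.5% of all genes. DESeq2, with all libraries or only those of the pair compared, also called 0 of 10 members and gave none an unadjusted p under 0.05.

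**Figure D1:**
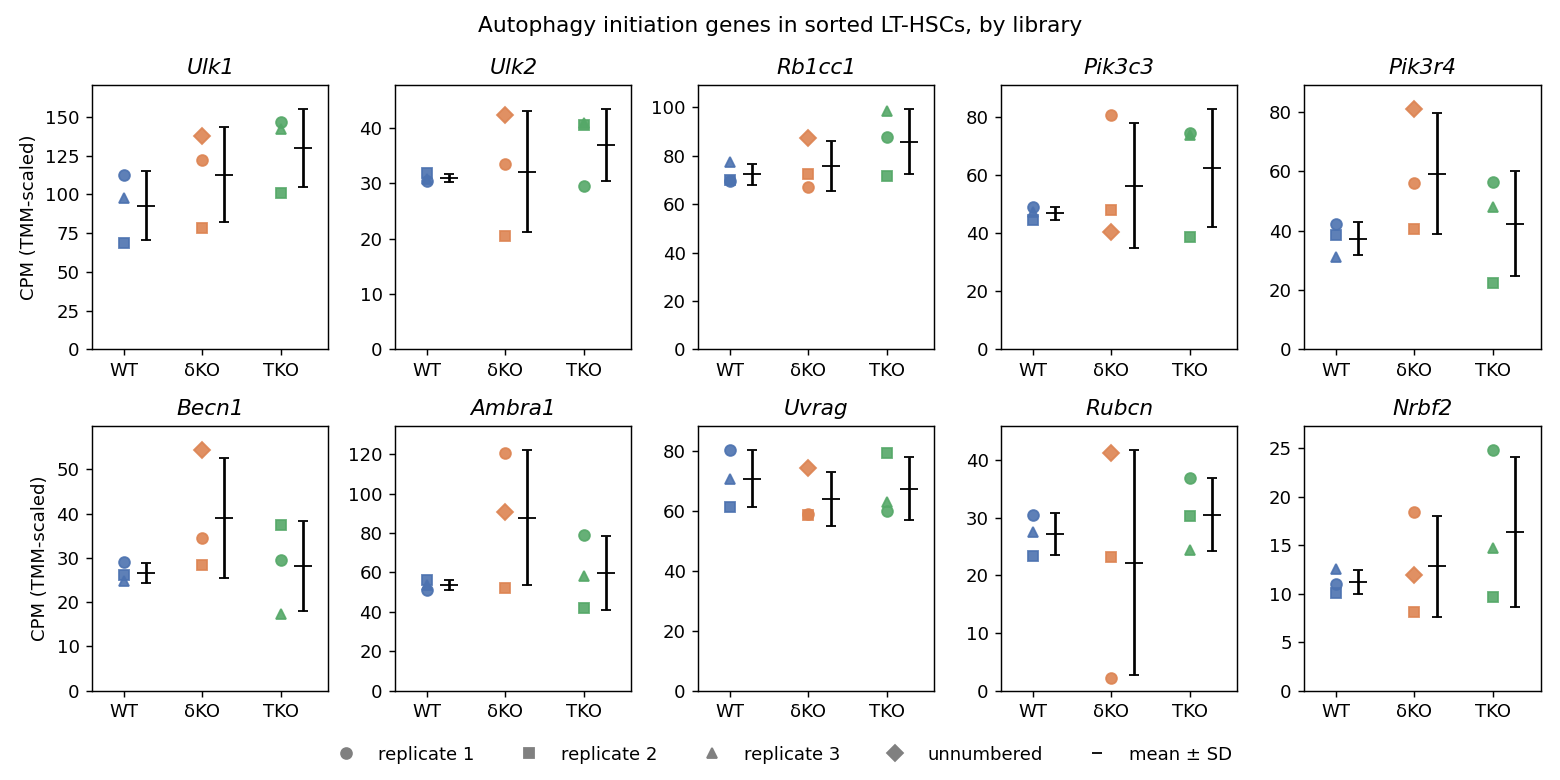
Level of each member gene in each library, in CPM scaled with TMM factors, which correct for the makeup of a library (vertical axis, from 0), by genotype (horizontal axis). Symbols mark replicate 1 (circle), 2 (square), 3 (triangle) and the unnumbered δKO library (diamond), and bars give the mean ± SD of 3 libraries. The WT libraries lie close together for most genes, the δKO and TKO libraries spread around them, and the 3 groups overlap in every panel.

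Small differences in level were more often upward than downward. On the log2 scale, 9 of 10 members were above 0 in TKO against WT, with a median of 0.21 beside 0.02 over all genes, of which 51.2% were above 0. Against δKO, TKO was higher for 7 of 10 members (median 0.16 beside -0.06, with 47.2% of all genes above 0). Without δKO replicate 2 it was higher for 5 of 10 (median 0.0029 beside 0.05 over all genes). The count was also 5 of 10 without TKO replicate 1 (median 0.05 beside -0.07 over all genes). δKO was higher than WT for 8 of 10 (median 0.23 beside 0.05, with 52.8% of all genes above 0), but for 5 of 10 (median -0.01 beside -0.02 over all genes) with genes detected as a covariate. With upper-quartile scaling, which shifts all genes by -0.15, it was also 5 of 10, with a median of 0.04 beside -0.10 over all genes. The count for TKO against WT was 9 of 10 with upper-quartile scaling as well. Without TKO replicate 1 it was 8 of 10, with a median of 0.08 beside -0.02 over all genes. TKO against WT and δKO against WT share the WT libraries, so their directions are not separate evidence. None of these differences passed the test for a single gene.

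How wide the estimates were is shown by their 95% intervals. All 30 member intervals held 0. Intervals lay within 2-fold in both directions for Rb1cc1, Becn1, Ambra1 and Uvrag in TKO against WT, for Ulk1, Ulk2, Rb1cc1, Pik3c3 and Uvrag in TKO against δKO, and for Ulk1, Ulk2, Rb1cc1 and Uvrag in δKO against WT. For the remaining members the interval reached past 2-fold in at least 1 direction, with standard errors from 0.29 (Ulk1 in TKO against WT) to 0.71 (Rubcn in TKO against δKO) on the log2 scale.

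**Figure D2:**
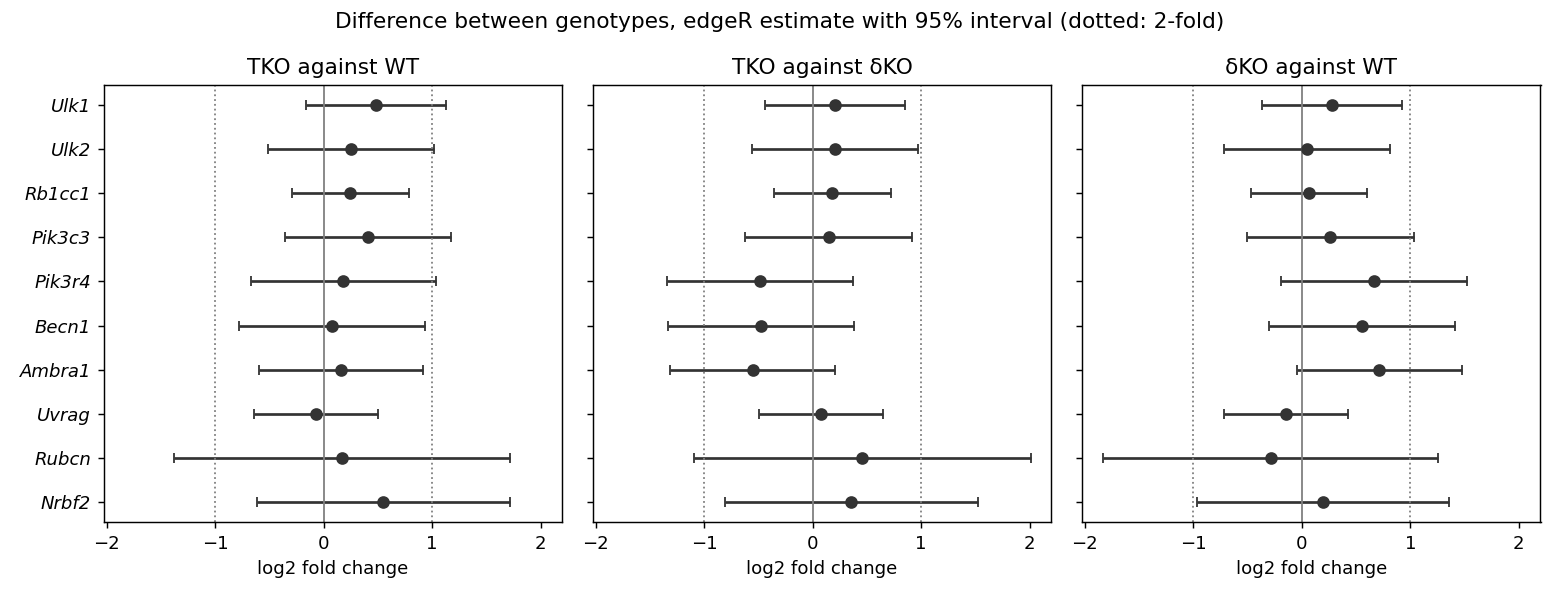
Difference between genotypes for each member (horizontal axis, log2 fold change, points) with the 95% interval from edgeR's fit (bars), in 1 panel for each comparison, with dotted lines at 2-fold. Every interval crosses 0, and those of Rubcn and Nrbf2 are the widest.

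Ulk1, the main kinase of the complex (chr5:110784488-110810097, minus strand, mm10), had the highest mean CPM of the 3 ULK complex genes in each genotype, although Rb1cc1 was slightly above it in WT replicate 2 (70.0 against 68.7 CPM). In WT its level was 112, 68.7 and 97.4 CPM in replicates 1, 2 and 3. In δKO it was 122 CPM in replicate 1, 78.6 in replicate 2 and 138 in the unnumbered library. In TKO it was 147, 101 and 142 CPM. The TKO libraries with the highest values lay above all WT libraries, whereas TKO replicate 2 lay inside the WT range. The mean was 92.9 ± 22.2 CPM in WT, 113 ± 30.6 in δKO cells and 129.9 ± 25.2 in TKO (SD, n = 3 each). For TKO against WT its log2 fold change was 0.48 (SE 0.29, edgeR's adjusted p = 1.00), with 0.20 against δKO and 0.28 for δKO against WT. Without WT replicate 2 the first value was 0.31 and the last 0.10. Without the unnumbered δKO library the last was 0.11, and without WT replicate 1 or δKO replicate 2 it was 0.44 or 0.49.

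Ulk2, the paralog that can stand in for Ulk1 (chr11:61775649-61855073, minus strand), was nearly constant in WT at 30.5, 31.8 and 30.8 CPM. Its δKO values were 33.5 in replicate 1, 20.6 in replicate 2 and 42.3 in the unnumbered library, so that δKO lay on both sides of WT. TKO values were 29.5, 40.5 and 40.9 CPM, also on both sides. The log2 fold changes were 0.25, 0.20 and 0.05 for TKO against WT, TKO against δKO, then δKO against WT, with adjusted p of 1.00, 0.87 and 0.99 from edgeR.

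Because both kinases come from the same library, their ratio does not depend on the scaling. The log2 ratio of Ulk2 to Ulk1 counts was -1.55 ± 0.40 in WT, -1.83 ± 0.12 in δKO cells and -1.81 ± 0.50 in TKO (SD, n = 3 each). An exact two-sided permutation test gave p = 0.5 for TKO against WT, 0.9 for TKO against δKO and 0.3 for δKO against WT, all 1 after adjustment over the 9 ratio tests. With 3 libraries against 3 the smallest p that test allows is 0.1.

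Rb1cc1, the scaffold FIP200 (chr1:6206197-6276648, plus strand), had the smallest standard error of the 10 members. Its WT values were 69.7, 70.0 and 77.2 CPM. In δKO they were 67.3, 72.6 and 87.3 CPM, the last in the unnumbered library, and in TKO 87.6, 71.7 and 98.4 CPM. TKO replicates 1 and 3 lay above every WT library and TKO replicate 2 lay among them. The log2 fold change of TKO against WT was 0.25 (SE 0.25, edgeR's adjusted p = 1.00), with an interval from -0.29 to 0.79, and it was 0.14 without TKO replicate 3.

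None of the 3 core subunits of the VPS34 complexes passed the test. All 3 had log2 fold changes above 0 in TKO against WT and in δKO against WT, comparisons that share the WT libraries, and 1 of 3 (Pik3c3) in TKO against δKO. Pik3c3, the lipid kinase itself (chr18:30272747-30348126, plus strand), was at 49.0, 44.6 and 47.4 CPM in WT. It was at 80.9 CPM in δKO replicate 1, 48.1 in replicate 2 and 40.3 in the unnumbered library. TKO held 74.5, 38.9 and 73.9 CPM, so that the highest and the lowest mutant values lay on either side of the narrow WT range. For TKO against WT the log2 difference was 0.41 (SE 0.35, edgeR's adjusted p = 1.00), and it was 0.26 without TKO replicate 1 and 0.66 without TKO replicate 2.

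Pik3r4, the regulatory kinase-like subunit VPS15 (chr9:105642978-105687657, plus strand), was at 42.3, 38.4 and 31.2 CPM in WT. In δKO the values were 56.2, 40.6 and 80.9 CPM, with the highest in the unnumbered library, and in TKO 56.5, 22.5 and 47.9 CPM. Its mean was 37.3 ± 5.64 CPM in WT, 59.2 ± 20.4 in δKO cells and 42.3 ± 17.7 in TKO (SD, n = 3 each). On the log2 scale δKO exceeded WT by 0.67 (SE 0.39, edgeR's adjusted p = 0.731) and -0.49 for TKO against δKO (SE 0.39, adjusted p = 0.685). Without the unnumbered δKO library these became 0.37 and -0.20, and the TKO against δKO value was -0.75 without TKO replicate 1 and -0.18 without TKO replicate 2.

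Becn1, the Beclin 1 scaffold (chr11:101285952-101302286, minus strand), was at 29.1, 26.0 and 24.7 CPM in WT, 34.5, 28.4 and 54.3 in δKO cells and 29.6, 37.5 and 17.3 in TKO. The 3 highest values were those of the 3 libraries with the fewest genes detected. Over the 9 libraries the correlation of its log2 CPM with the number of genes detected was r = -0.84, given as a description, since the libraries share amplification and depth. With genes detected as a covariate the log2 fold change of δKO against WT went from 0.56 to -0.05, and without the unnumbered δKO library it was 0.24. In the mm10 annotation 43.9% of the exon bases of Becn1 are shared with exons of Cntd1 on the opposite strand, and whether counting used strand is not given in the sources used here, so reads of the pair may not be separable.

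The genes of the VPS34 regulators come next. Ambra1, whose product links Beclin 1 and ULK1 to ubiquitin ligases (chr2:91730134-91918849, plus strand), had the largest log2 fold change of the 10 members in δKO against WT, in the fit without covariates. WT values were 51.0, 56.0 and 53.5 CPM. δKO values were 121 CPM in replicate 1, 52.2 in replicate 2 and 90.8 in the unnumbered library. TKO values were 79.2, 41.9 and 58.2 CPM. Of the δKO libraries 2 lay above every WT library and replicate 2 lay within the WT range. The log2 fold change was 0.71 for δKO against WT (SE 0.35, edgeR's adjusted p = 0.699) and -0.55 for TKO against δKO (SE 0.35, adjusted p = 0.595). Without δKO replicate 2 these became 0.99 (edgeR's adjusted p = 0.259) and -0.83 (adjusted p = 0.251), and both then had an unadjusted p under 0.05, whereas without δKO replicate 1 they were 0.42 and -0.26. With genes detected as a covariate they were 0.31 and -0.24. The high δKO values were in the 2 libraries with the fewest genes detected, whereas TKO replicate 2, also low in genes detected, held the lowest value of all (r = -0.64 over the 9 libraries, as a description).

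**Figure D3:**
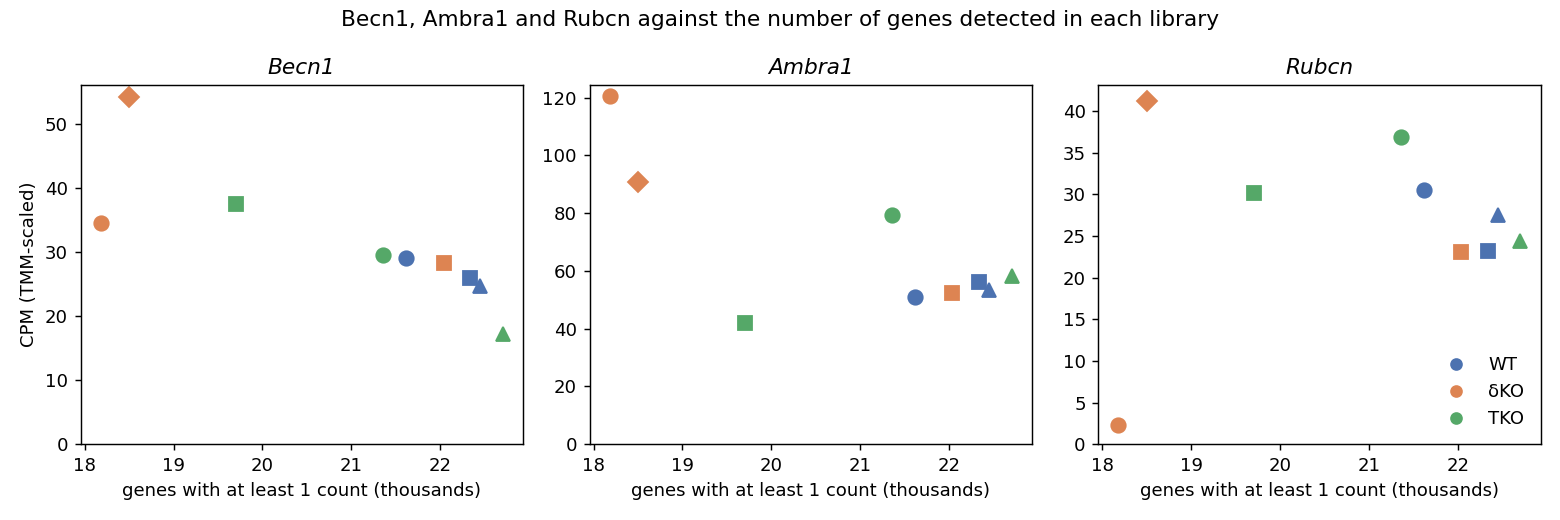
Level of Becn1, Ambra1 and Rubcn (vertical axis, TMM-scaled CPM, from 0) against how many genes had 1 or more counts (horizontal axis, in units of 1000) in each of the 9 libraries, with colors for genotype and the same symbols for replicates as in the plot of levels by library. Becn1 falls from left to right, Ambra1 is highest in the δKO libraries with the fewest genes, and Rubcn is near 0 in δKO replicate 1 alone.

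Uvrag, the subunit of the endosomal VPS34 complex (chr7:98885021-99141141, minus strand), showed small differences in all 3 comparisons. WT held 80.4, 61.4 and 70.8 CPM, δKO 59.2, 58.6 and 74.4 CPM and TKO 60.1, 79.4 and 63.2 CPM. All 3 groups covered nearly the same range. The log2 fold changes were -0.07, 0.08 and -0.15 for TKO against WT, TKO against δKO, then δKO against WT (SE 0.26 each), and all of these intervals lay within 2-fold. Of the exon bases of Uvrag 17.6% are shared with Gm45187 on the opposite strand.

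The ratio of Uvrag to Atg14, the 2 subunits that divide VPS34 between endosomes and autophagosomes, also overlapped between genotypes. Its log2 value was 2.31 ± 0.36 in WT, 2.35 ± 1.42 in δKO cells and 2.25 ± 0.39 in TKO (SD, n = 3 each). Exact two-sided permutation p values were 1, 0.9 and 1 for TKO against WT, TKO against δKO, then δKO against WT, and 1 after adjustment. The wide δKO spread came with Atg14, at 5.78, 7.41 and 45.3 CPM in δKO against 11.0 to 16.6 in WT and 12.3 to 15.2 in TKO.

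Rubcn, which encodes Rubicon, an inhibitor of the UVRAG-containing complex (chr16:32821703-32877766, minus strand), was rare in a single library. WT held 30.5, 23.3 and 27.5 CPM and TKO 36.9, 30.2 and 24.4 CPM. δKO held 2.27 CPM in replicate 1, 23.1 in replicate 2 and 41.2 in the unnumbered library. The low value rested on 57 counts (exact Poisson 95% interval 43.2 to 73.9, for counting error only). It was 12.7-fold below the median of the other 8 libraries, 28.9 CPM. Rubcn was the only member over 10-fold below the median of the others in any library, in the library where 3.03% of genes were.

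This library set the sign of the Rubcn differences. The log2 fold change of δKO against WT was -0.29 (SE 0.71, edgeR's adjusted p = 0.956) with it and 0.25 without it. For TKO against δKO it was 0.46 with it and -0.08 without it. The log2 ratio of Rubcn to Uvrag was -1.39 ± 0.02 in WT, -2.29 ± 2.08 in δKO cells and -1.16 ± 0.39 in TKO (SD, n = 3 each). Exact two-sided permutation p values were 0.5 for TKO against WT, 0.6 for TKO against δKO and 1 for δKO against WT, all 1 after adjustment.

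Nrbf2, a subunit that binds the ATG14-containing complex (chr10:67266689-67285305, minus strand), had the lowest CPM of the 10 members in the WT mean. Its values were 11.0, 10.1 and 12.5 CPM in WT, 18.5, 8.10 and 11.9 in δKO cells and 24.8, 9.65 and 14.7 in TKO. TKO replicate 1 held the highest value and TKO replicate 2 was below every WT library. With a log2 fold change of 0.55 for TKO against WT it had the largest difference of the members in that comparison, yet also a wide error (SE 0.53, edgeR's adjusted p = 1.00), and without TKO replicate 1 it was 0.12.

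Variation between libraries of one genotype was small in WT and larger in the mutants. The highest over the lowest value of a member had a median of 1.21 in WT, beside 1.45 over all 8908 genes that averaged 10 or more CPM. In δKO it was 2.00, beside 2.28, and in TKO 1.70, beside 1.60. Ulk2 in WT was the tightest, at 1.05-fold, and Rubcn in δKO the widest, at 18.1-fold. Many genes of the mutant libraries lay outside the range of the 3 WT libraries, so the members are given beside the 8908 genes. TKO replicate 1 was above that range for 8 of 10 members and below it for 2, where 31.9% of the genes were above and 31.9% below. TKO replicate 2 was above it for 2 and below it for 4 (35.1% and 29.0% of the genes), and TKO replicate 3 for 7 and 1 (25% and 31.7%). δKO replicate 1 was above it for 7 members and below it for 3 (46.6% and 34.2% of the genes). δKO replicate 2 was above it for 0 and below it for 4 (24.7% and 23.6%), and the unnumbered δKO library for 7 and 1 (41.6% and 29.5%).

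Correlations between members over the 9 libraries were mixed. The 45 pairs of members had correlations of log2 CPM between -0.63 (Pik3c3 with Uvrag) and 0.81 (Pik3c3 with Nrbf2), with a median of 0.22. Of these 30 were above 0 and 10 above 0.5, among them Ulk1 with Nrbf2 (0.73), with Rb1cc1 (0.66), with Pik3r4 (0.56), with Pik3c3 (0.53) and with Ulk2 and Ambra1 (0.51 each). These are descriptions over libraries that share depth and amplification differences, and no share over all pairs of genes was counted beside them. Of 10774 genes that averaged 5 or more CPM, the genes most like Ulk1 by the same measure were Bptf (r = 0.90), Pik3c2b (r = 0.90) and Camk2a (r = 0.90). Those most like Pik3c3 were Ski (r = 0.97), Zfp628 (r = 0.97) and Gm37906 (r = 0.95). These genes were picked as the highest of 10774 over only 9 libraries, so the height of r alone shows no link.

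Levels of different genes were compared per kilobase of exon, as RPKM (CPM divided by the length of all exons in kilobases). Ulk1 was the most abundant, at 17.2 ± 4.29 RPKM (SD over 9 libraries), and was highest of the 10 members in 8 of 9 libraries, with Ambra1 highest in the other one. Pik3c3 followed at 12.4 ± 3.66, below Ulk1 in 9 of 9 libraries. Ambra1 stood at 11.0 ± 4.11, Uvrag at 7.47 ± 0.98 and Nrbf2 at 7.25 ± 2.82 RPKM. Ulk2 stood at 5.58 ± 1.16, Rb1cc1 at 5.31 ± 0.73, Pik3r4 at 4.79 ± 1.76, Becn1 at 4.42 ± 1.47 and Rubcn at 3.56 ± 1.47 RPKM. Apart from the first 2, neighbors in this order swapped places in 2 or 3 of the 9 libraries and did not differ beyond their spread. With the longest coding transcript as the length, an alternative added after seeing the data, the means of Ulk1 and Pik3c3 stayed first and second and that of Rubcn last, but Ulk1 was above Pik3c3 in 7 of 9 libraries. In that order Rb1cc1 moved from rank 7 to 5 and Ulk2 from rank 6 to 9.

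**Figure D4:**
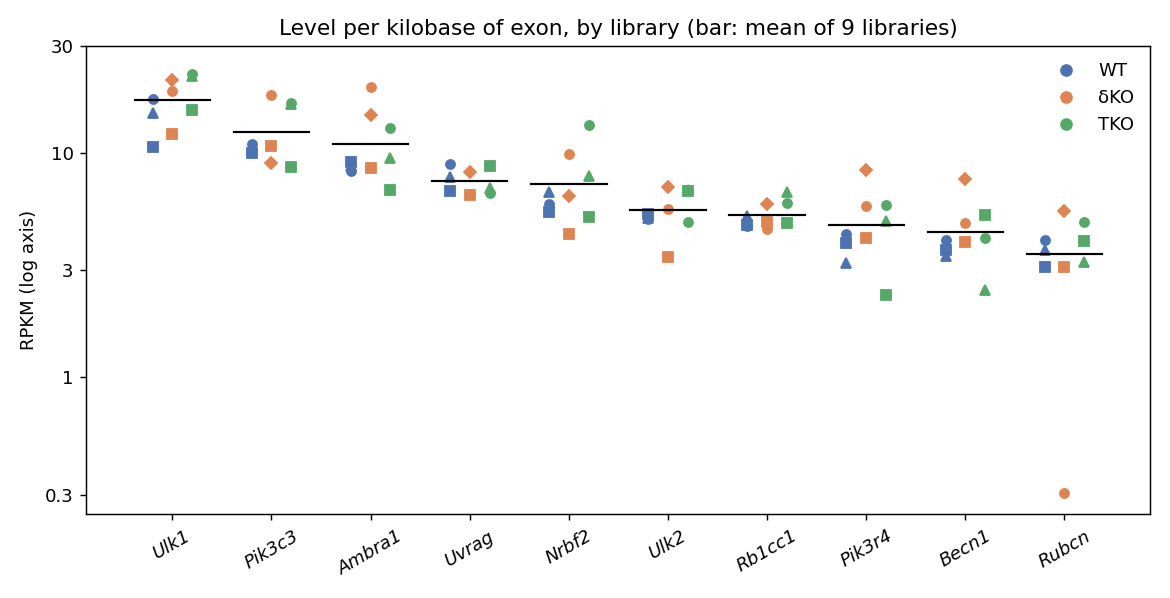
Level of each member per kilobase of exon (vertical axis, RPKM, log axis) in each library, ordered by the mean of the 9 libraries (bars), with colors for genotype and circles, squares, triangles and diamonds for replicates 1, 2, 3 and the unnumbered library. Ulk1 is highest at a mean of 17.2 RPKM, and the single low point of Rubcn is δKO replicate 1 at 0.304 RPKM.

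The regulators of lysosome and autophagy genes TFEB and TFE3 bind a longer element that contains the E-box CACGTG, and FoxO factors bind the core GTAAACA. RefSeq promoter windows (250 bases before to 50 after a start, GRCm38.p6) were found for 7 of 10 members and held 8 windows, with Rb1cc1, Pik3c3 and Becn1 not among them. The E-box, which reads the same on both strands, occurred in 2 of the 8, against 7.15% of all 32851 windows. GTAAACA, searched on both strands, occurred in 0 of the 8, against 3.65%. The windows with an E-box belong to Nrbf2 and to a start of Rubcn, and the stretches around it are shown because no other member window held it, with the E-box in capitals. The stretch of Nrbf2 is chr10:67285454-67285519 on the minus strand, with the E-box beginning 208 bases before the start. The stretch of Rubcn is chr16:32868419-32868484 on the minus strand, with the E-box beginning 88 bases before the start. This start lies inside the gene span given above, downstream of its 5' end, so it is an internal start.
Nrbf2: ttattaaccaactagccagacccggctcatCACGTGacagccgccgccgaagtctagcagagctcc
Rubcn: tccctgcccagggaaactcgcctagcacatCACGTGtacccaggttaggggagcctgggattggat

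A match to these letters describes the sequence alone. Neither gene with an E-box passed the test in any comparison, as given above for Nrbf2 and Rubcn.

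Partners of these complexes that are not members were counted in the same way. Of 10 partner genes 0 were called in any comparison, and 0 had an unadjusted p under 0.05 (edgeR). Their median log2 fold change was 0.12 for TKO against WT, 0.08 for TKO against δKO and -0.08 for δKO against WT. Atg13, the ULK complex subunit that MTORC1 phosphorylates, was at 33.9 to 53.1 CPM in WT, 33.4 to 36.5 in δKO cells and 34.4 to 50.2 in TKO.

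Atg101, the partner of Atg13 in the complex, was named because its WT libraries did not overlap with those of either mutant, a choice made after its values were seen. It was at 13.5, 13.8 and 14.4 CPM in WT, 7.22, 5.70 and 6.27 in δKO cells and 3.25, 8.28 and 8.41 in TKO. All 6 mutant libraries lay below all 3 WT libraries, and δKO and TKO overlapped. Over all genes, 14.4% did not overlap between TKO and WT and 11.5% between δKO and WT. The log2 fold change was -1.06 for TKO against WT (SE 0.58, edgeR's adjusted p = 1.00) and -1.12 for δKO against WT (SE 0.58, adjusted p = 0.699). These comparisons share the WT libraries. With DESeq2 on the groups compared, δKO against WT was called for Atg101 (log2 fold change -1.09, adjusted p = 0.0348), and the range of its adjusted p over all alternatives was 0.0348 to 1.00.

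Sh3glb1, which encodes the Beclin 1 and UVRAG interactor Bif-1, was at 113, 124 and 126 CPM in WT, 100.5, 115 and 145 in δKO cells and 157, 176 and 147 in TKO. Every TKO library lay above the others, the lowest TKO library only just above the highest δKO library. Groups did not overlap for 2 of 10 partners in TKO against WT and for 2 of 10 in TKO against δKO, where 14.4% and 11.7% of all genes did not. The log2 fold change was 0.41 against WT (SE 0.23, edgeR's adjusted p = 1.00) and 0.41 against δKO (SE 0.23, adjusted p = 0.552), and neither passed the test. Rubcnl, which encodes Pacer, was at 5.23 ± 3.35 CPM in TKO and 1.29 ± 1.27 in δKO (SD, n = 3 each), with 1 δKO library at 3 counts. WT averaged 3.36 CPM, and its libraries overlapped with those of TKO and with those of δKO. For TKO against δKO the log2 fold change of 2.01 had an SE of 1.18 (adjusted p = 0.568) and was 3.08 without δKO replicate 2. Against WT it was 0.64 (SE 1.14).

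Genes upstream of the complexes, and those that bind, make or remove PI3P or extend the autophagosome, were also counted, and none was called by edgeR. Of 9 genes for AMP-activated kinase subunits, its activating kinase and MTORC1, 0 were called. In δKO against WT 1 of the 9 had an unadjusted p under 0.05 (edgeR), where 7.01% of all genes did. This gene was the AMP-activated kinase subunit Prkag2, with 31.2, 42.9 and 60.8 CPM in WT, 116, 49.1 and 107 in δKO cells and 58.9, 60.2 and 60.6 in TKO. Its log2 fold change was 1.01 (SE 0.36, edgeR's adjusted p = 0.699), and 0.47 with genes detected as a covariate. Between TKO and δKO the log2 fold change was -0.60 (adjusted p = 0.582), and it was -0.38 without δKO replicate 1, -0.90 without δKO replicate 2 and -0.21 with genes detected as a covariate. That of Prkaa1, the catalytic α1 subunit, was -0.54 (adjusted p = 0.659) and 0.0035 without δKO replicate 1.

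Genes that bind PI3P or extend the autophagosome were 8 in number. On the log2 scale their medians were 0.08 for TKO against WT, -0.01 for TKO against δKO and -0.02 for δKO against WT. None had an unadjusted p under 0.05. For TKO against δKO, Wipi2, a PI3P-binding effector, was at 0.31 and Zfyve1, a marker of the membranes where autophagosomes form, at 0.38 (SE 0.29 and 0.37). Without TKO replicate 1 these were 0.12 and 0.22, and without TKO replicate 2 Wipi2 was at 0.47.

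Among 12 genes of PI3P turnover, 10 had a log2 fold change below 0 in TKO against δKO, with a median of -0.19 beside -0.06 over all genes, of which 47.2% were above 0. In TKO against WT 6 were below 0 and 6 above (median 0.0058), and in δKO against WT 5 were below and 7 above (median 0.21). An unadjusted p under 0.05 was reached by 1 of 12 in TKO against δKO, where 10.2% of all genes reached it. This gene was Mtmr6, a myotubularin-related PI3P phosphatase. It was at 42.5, 45.0 and 40.3 CPM in WT, 116, 27.7 and 66.1 in δKO cells and 23.4, 34.7 and 24.9 in TKO. All TKO libraries lay below all WT libraries, whereas δKO replicate 2 lay among the TKO values. Mtmr6 was the only 1 of these 12 genes whose groups did not overlap in TKO against WT, against 14.4% of all genes. The log2 fold change was -1.34 for TKO against δKO (SE 0.44, edgeR's adjusted p = 0.465) and -0.62 for TKO against WT (SE 0.44, adjusted p = 1.00). The former was -0.77 without δKO replicate 1 and -0.55 with genes detected as a covariate. Mtm1, the founding myotubularin, was at 12.4 ± 0.97 CPM in WT, 23.9 ± 6.61 in δKO cells and 15.5 ± 7.60 in TKO (SD, n = 3 each). Every δKO library lay above every WT library. Mtm1 was the only 1 of these 12 genes whose groups did not overlap in δKO against WT, against 11.5% of all genes. Its log2 fold change in δKO against WT was 0.94 (SE 0.48, adjusted p = 0.699), and 0.25 with genes detected as a covariate.

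**Figure D5:**
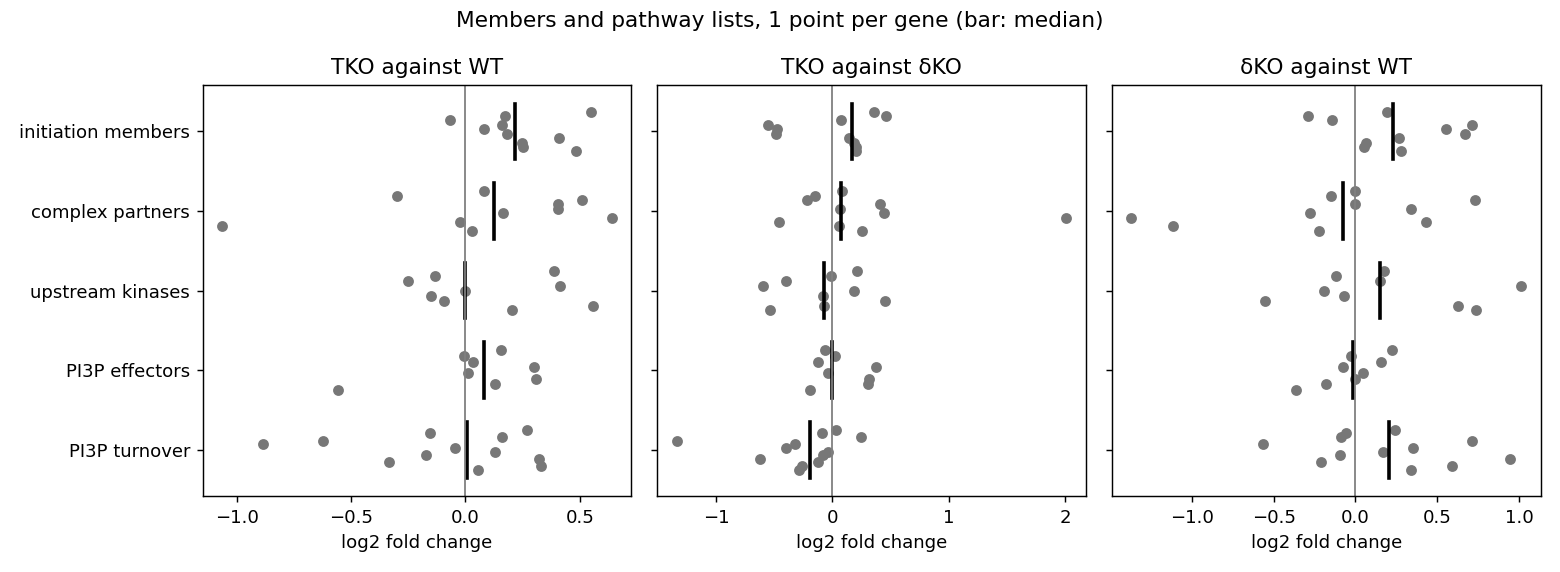
Log2 fold change (horizontal axis) of each gene, 1 point per gene, for the 10 members and the 4 pathway lists (vertical axis), with bars at the median of each list, in 3 panels for the 3 comparisons. The points lie around 0 in all lists, and no point passed the test.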

How the data were processed

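The authors trimmed reads with Trim Galore (0.3.7), aligned them to mm10 with STAR (2.5.1b) and deposited raw counts per gene, whole numbers for 47643 genes in 9 libraries (the tools are named in the submitters' processing notes). RNA of sorted cells had been amplified before sequencing. The deposited normalized table was not used here. Each column was matched to a genotype by its name, and 1 δKO column, whose number matches no sample label, was kept as an unnumbered replicate. The gene annotation, strand setting and joining of technical runs are not given in the sources used here.

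Coordinates come from an mm10 annotation that holds 47224 of the identifiers, 39106 of them in the same version (8 of 10 members). Genes were kept with edgeR's filterByExpr function (count minimum 10, total 15), which left 18205. Counts were scaled with TMM factors and tested with edgeR's quasi-likelihood model on all 9 libraries, 1 mean per genotype, with Benjamini-Hochberg adjustment over all genes tested (6 residual degrees of freedom, common BCV 0.805). Ratios are of counts + 1 within a library. Analysis used R 4.3.3, edgeR 4.0.16, DESeq2 1.42.0, Python 3.11.15 and matplotlib 3.10.9, and the fit was tested on simulated data.

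Genes named are the 10 members, the targeted genes, the genes of the ratios, the 2 genes of each pathway list with the smallest p in TKO against δKO, and the 3 genes most like Ulk1 and Pik3c3. Atg13 and genes whose groups did not overlap were added after their values were seen. The members and lists were chosen with earlier results of these data known. Alternatives were other scaling factors, no filter, the replicate number as a block, genes detected as a covariate, only the groups compared, DESeq2, 10 added to counts in ratios and each library left out in turn.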

Additional observations from a re-analysis of the deposited data

How the results depend on the processing

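No member was called under any of the 17 alternatives in any comparison. Of 510 values of members under alternatives, 484 kept their direction and 26 changed sign, and no member value crossed the threshold. Without δKO replicate 2, 1 of 10 members (Ambra1) had an unadjusted p under 0.05 in δKO against WT and 1 in TKO against δKO, where 0 had one with all libraries. Over all genes edgeR called 1, 0 and 1 in TKO against WT, TKO against δKO, then δKO against WT, whereas DESeq2 called 125, 552 and 191 on all 9 libraries and 575, 267 and 194 on the groups compared, and edgeR on the groups compared alone 9, 0 and 0. With upper-quartile factors, which shift the median of all genes by -0.15 in δKO against WT and 0.14 in TKO against δKO, δKO against WT became -0.0039 for Nrbf2, -0.089 for Rb1cc1 and -0.13 for Ulk2. With genes detected as a covariate, δKO against WT became -0.049 for Becn1, -0.14 for Nrbf2 and -0.37 for Ulk2, and TKO against WT became -0.17 for Becn1. Same-numbered libraries of different genotypes were not paired by the data (correlations of their deviations from -0.04 to 0.08 in 7 pairs, 0 over 0.1). In a fit with the replicate number as a block (replicate block), the unnumbered δKO library was a block by itself. Its values then had no part in the comparisons, and δKO rested on replicates 1 and 2. This fit called 0 of 10 members in each comparison. It changed the sign for Pik3c3 in TKO against δKO (-0.13) and Ulk2 in δKO against WT (-0.17).

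With each library left out in turn, TKO against WT ranged from -0.099 to 0.36 for Ambra1, -0.19 to 0.34 for Becn1, -0.087 to 0.48 for Pik3r4 and -0.20 to 0.028 for Uvrag. TKO against δKO ranged from -0.076 to 0.71 for Nrbf2, -0.047 to 0.50 for Pik3c3, -0.79 to 0.0035 for Prkaa1, -0.078 to 1.26 for Rubcn, -0.0048 to 0.37 for Ulk1, -0.042 to 0.45 for Ulk2 and -0.058 to 0.20 for Uvrag. δKO against WT ranged from -0.16 to 0.44 for Nrbf2, -0.089 to 0.45 for Pik3c3, -0.050 to 0.14 for Rb1cc1, -1.09 to 0.25 for Rubcn and -0.20 to 0.29 for Ulk2. The differences in log2 ratio changed sign too, in TKO against δKO from -0.059 to 1.85 for Rubcn to Uvrag, -0.22 to 0.28 for Ulk2 to Ulk1 and -0.92 to 0.40 for Uvrag to Atg14. In δKO against WT they ranged from -1.62 to 0.29 for Rubcn to Uvrag and -0.46 to 0.85 for Uvrag to Atg14, and in TKO against WT from -0.28 to 0.13 for Uvrag to Atg14. Without a change of sign, values moved by over 1.5 times for Ulk2 in TKO against WT (up to 0.39) and Uvrag in δKO against WT (-0.27 to -0.046). In TKO against δKO the same held for Becn1 (-0.74 to -0.17) and Rb1cc1 (0.073 to 0.29). In TKO against WT it also held for Rubcn (0.0074 to 0.31). With the replicate block, where δKO rested on replicates 1 and 2, Rubcn was at -1.53 in δKO against WT and 1.68 in TKO against δKO. The cause of these changes was not tested. The lowest count of a member in any library was 57.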
